A study of Mus musculus with 20 samples.

Results

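Coenzyme A (CoA) carries acyl groups in nearly every branch of lipid and carbohydrate metabolism, and its reactive thiol comes from cysteine. Pantothenate (vitamin B5) enters cells through the vitamin transporter Slc5a6 and is phosphorylated by the pantothenate kinases, whose active isoforms are held back by CoA and acyl-CoA. Ppcs then joins cysteine to phosphopantothenate, Ppcdc removes the carboxyl group of that cysteine to give phosphopantetheine, and Coasy adds the nucleotide part. Pantetheinases of the vanin family work in the opposite direction, splitting pantetheine into pantothenate and cysteamine, and the liver is a main site of both synthesis and recycling. The genes described here are these 10: Pank1, Pank2, Pank3, Pank4, Ppcs, Ppcdc, Coasy, Vnn1, Vnn3 and Slc5a6. They are picked by symbol, a rule that uses no measured value, among 46078 genes of a liver RNA-seq count table, and all 10 were among the 14759 genes with enough counts for a test.

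Whole livers of 20 male mice, at least 9 weeks old when the diets began, were compared in 6 groups. Cse-/- mice (KO), on a mixed 129/C57BL/6 background, lack cystathionine gamma-lyase in the whole body and so cannot make cysteine from cystathionine, and mice heterozygous for the deletion (Cse+/-, Het) served as controls. The sample labels call the control genotype wild type, whereas the study's list of mice calls it heterozygous. All mice first received a calorie-restricted control diet and then, still restricted, either the control diet (Het, n = 2), a diet without cysteine (no Cys; Het, n = 4, and KO, n = 4), a diet without tryptophan (no Trp; Het, n = 3, and KO, n = 3), or the no-Trp diet with L-buthionine sulfoximine (BSO), which blocks glutathione synthesis (KO, n = 4). Livers were taken on day 2 of the diet. No KO liver of a mouse fed the control diet entered the comparisons, so a genotype difference can be read only on the deficient diets.

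Total counts per library ranged from 11785740 to 57986121, and levels are given in CPM, which removes the differences in sequencing depth after scaling of the libraries. Cth, the gene that encodes cystathionine gamma-lyase, ranged from 88.4 to 332 CPM in the Het and from 6.37 to 14.4 CPM in the KO livers, so the ranges of KO and control livers did not overlap. These levels separate KO from control livers and cannot tell Het from wild-type mice. Libraries av01 (Het no Cys), av08 (KO no Cys) and av15 (KO no Trp) differed most from the other mice of their groups, with an SD over genes of 0.521, 0.505 and 0.529 on the log2 scale, and calls of the 10 genes that were gained or lost without these 3 are given. The summed level of 6 hepatocyte markers was 87662 to 114613 CPM in Het no-Cys and 42324 to 72836 CPM in KO no-Cys livers, that of 5 cholangiocyte markers 45.9 to 57.9 and 16.4 to 28.6 CPM, and that of 3 red cell markers 172 to 363 and 59.4 to 101 CPM. The hepatocyte sum is mostly Alb: of the 6 markers 3 were called lower and 1 higher in that contrast, and Cps1 was at 1935 to 4159 CPM in Het and 3598 to 5117 CPM in KO livers. On the no-Trp diet the same sums were 80340 to 88357 and 66683 to 73186 CPM (hepatocyte), 48.0 to 62.1 and 27.6 to 46.2 CPM (cholangiocyte), and 176 to 211 and 101 to 155 CPM (red cell) in Het and KO livers, which do not overlap, and no marker of these lists passed. Endothelium markers did not overlap on the no-Cys diet either (133 to 165 CPM in Het and 123 to 131 CPM in KO livers). Kupffer cell (194 to 251 and 157 to 209 CPM), stellate cell and fibroblast (167 to 201 and 143.5 to 179 CPM) and leukocyte markers (7.43 to 12.9 and 6.20 to 7.92 CPM) overlapped there. Adipocyte markers summed to 13.1 CPM in av14 (KO no Trp) and 30.0 CPM in av17 (Het no Trp), against at most 0.920 CPM elsewhere, and pancreas markers to at most 1.91 CPM. In KO against Het without cysteine, 2 cholangiocyte, 3 red cell, 1 stellate cell and 1 leukocyte marker were called lower. In KO no Cys against no Trp, 2 hepatocyte, 1 cholangiocyte and 1 red cell marker were lower. Against no Trp+BSO, 2 hepatocyte and 2 cholangiocyte markers were. The genotype contrast differed between diets for 2 hepatocyte and 1 red cell marker. Het no-Cys livers had 1 cholangiocyte marker lower than control and 1 endothelium marker lower than no Trp. The part of these differences in the results below was not tested, and in bulk tissue fewer cells of a type and less RNA per cell cannot be told apart.

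Per length of exon, the 10 genes spanned a wide range of levels. Vnn3, Coasy and Vnn1 led with 58.2, 51.7 and 50.2 CPM per kilobase on average over the 20 livers, and Pank1 followed with 27.1. Ppcs (15.4), Pank3 (9.54), Slc5a6 (6.92), Pank4 (5.26), Ppcdc (4.02) and Pank2 (3.94 CPM per kilobase) were lower. Among neighbours in that order, only Pank1 and Ppcs did not overlap in their ranges over mice. Pank1 was thus the kinase with the highest level per length in these livers. The variation over mice was modest for most genes: the highest liver was 1.39 times the lowest for Ppcs, 1.5 times for Coasy and 1.52 times for Pank4, 1.99 times for Pank1, 2.12 times for Pank3 and 2.88 times for Slc5a6, whereas Vnn1 spanned 10.8-fold.

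**Figure D1:**
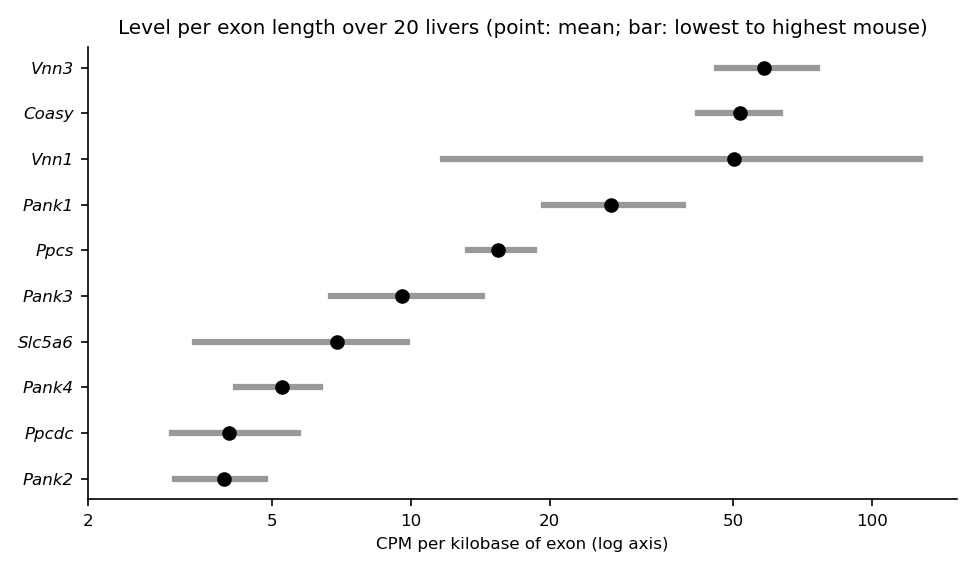
Level of the 10 genes in CPM per kilobase of exon, on a log axis, over 20 mouse livers. Points are means and bars run from the lowest to the highest mouse; Vnn3, Coasy and Vnn1 have the highest means, and Vnn1 has the widest range.

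The pantothenate kinase genes carry microRNA genes in their introns. Pank1 (ENSMUSG00000033610, chr19:34806940-34879455 of GRCm38, minus strand) holds Mir107, Pank2 (ENSMUSG00000037514, chr2:131262495-131299188, plus strand) holds Mir103-2, and Pank3 (ENSMUSG00000018846, chr11:35769484-35791285, plus strand) holds Mir103-1, each intronic and on the strand of its host. Their 3p mature forms, from RefSeq on GRCm38.p6, are shown because they tie the 3 kinase genes together. The capitals mark the seed, bases 2 to 8, which the 3 loci share.
mmu-miR-107-3p (in Pank1, chr19:34820700-34820722): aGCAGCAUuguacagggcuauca
mmu-miR-103-3p (in Pank2, chr2:131288103-131288125, and in Pank3, chr11:35782447-35782469): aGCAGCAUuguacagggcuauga
Mature microRNAs have no poly(A) tail and are not measured in these counts. Pank4 (ENSMUSG00000029056, chr4:154964123-154980938, plus strand), whose product belongs to the same family but is regarded as lacking kinase activity, hosts none in the annotation used.

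Pank3, which encodes a widely expressed kinase under tight feedback by acetyl-CoA, had the largest interaction term of the 10 genes, as its genotype difference changed sign with the diet. Its level was 84.9, 82.1, 82.0 and 71.5 CPM in the 4 Het no-Cys livers and 57.7, 60.5, 58.3 and 68.2 CPM in the 4 KO no-Cys livers. On the no-Trp diet it was 54.9, 73.6 and 63.0 CPM in Het and 71.4, 105 and 92.3 CPM in KO livers. The KO livers were thus all below the Het livers without cysteine, whereas without tryptophan the KO livers lay higher, with an overlap of 1 mouse from each group. Pank3 was lower in KO than in Het livers on the no-Cys diet, by a log2 fold change of -0.39 (SE 0.13, edgeR quasi-likelihood test with Benjamini-Hochberg adjustment, adjusted p = 0.033). On the no-Trp diet the same contrast gave 0.49 (SE 0.15), which missed the threshold (edgeR adjusted p = 0.077; DESeq2 adjusted p = 0.039).

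The test of the difference between these contrasts, the interaction of genotype and diet, gave -0.87 for Pank3 (SE 0.19, edgeR adjusted p = 0.014), and it passed in each of 14 fits that left out 1 library, with adjusted p-values from 0.0068 to 0.045. By contrast, the lower level in KO no-Cys livers alone passed in 2 of the 8 such fits, and was lost without av01, av02, av03, av05, av06 or av07 (adjusted p from 0.0239 to 0.0946 over the 8). Without av14 and without av17, the libraries with adipocyte transcripts, the interaction was -1.003 and -0.776. Among KO livers, Pank3 was lower on the no-Cys than on the no-Trp diet by a log2 fold change of -0.55 (SE 0.14, edgeR adjusted p = 0.015), with no overlap of the groups. That call was lost without av15, the liver with the highest Pank3 level (-0.43, adjusted p = 0.061), and in a fit of those groups alone (adjusted p = 0.052).

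With BSO, the KO no-Trp livers held 49.6, 63.9, 57.8 and 72.9 CPM of Pank3, close to the KO no-Cys livers: the log2 difference between KO no Cys and KO no Trp+BSO was 0.0038 (SE 0.13). Against the no-Trp diet without BSO, the log2 fold change of Pank3 was -0.55 (SE 0.14, edgeR adjusted p = 0.060), just above the threshold, while DESeq2 gave an adjusted p of 0.0100. The 2 control livers held 73.7 and 64.1 CPM. In order of mean level, KO no Trp (89.6 CPM) and Het no Cys (80.1 CPM) stood highest, Het control (68.9) and Het no Trp (63.8) were intermediate, and KO no Cys (61.2) and KO no Trp+BSO (61.1) were lowest, and every neighbouring pair in that order overlapped.

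Pank1, the kinase isoform that is prominent in liver, showed the same signs of the genotype contrast. It stood at 213, 293, 235 and 305 CPM in Het no-Cys, 253, 208, 201 and 208 CPM in KO no-Cys, 191, 211 and 199 CPM in Het no-Trp, and 220, 321 and 271 CPM in KO no-Trp livers. Without tryptophan every KO liver was above every Het liver, and without cysteine the groups overlapped. Neither contrast passed alone: the log2 fold change of KO against Het was -0.27 (SE 0.13, edgeR adjusted p = 0.14) on the no-Cys and 0.43 (SE 0.15, edgeR adjusted p = 0.13) on the no-Trp diet. Their difference, -0.70 (SE 0.20), passed with an edgeR adjusted p of 0.048. This margin was narrow, as it passed in 3 of 14 fits without 1 library (adjusted p from 0.022 to 0.13) and not without av15 (-0.55, adjusted p = 0.13) or with another scaling, the RLE factors (adjusted p = 0.051). It was also lost in a fit of those groups alone (adjusted p = 0.093) and without the 3 libraries that stood apart (-0.62, edgeR adjusted p = 0.052). In Het livers Pank1 was at 0.38 (edgeR adjusted p = 0.096) in no Cys against no Trp, and at 0.47 (edgeR adjusted p = 0.027) without those 3 libraries. With BSO, as for Pank3, the level of Pank1 was lower but did not pass in edgeR: the 4 KO no-Trp+BSO livers, at 161, 206, 171 and 200 CPM, were all below the 3 KO no-Trp livers, with a log2 fold change of -0.55 (SE 0.14, edgeR adjusted p = 0.064; DESeq2 adjusted p = 0.010).

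**Figure D2:**
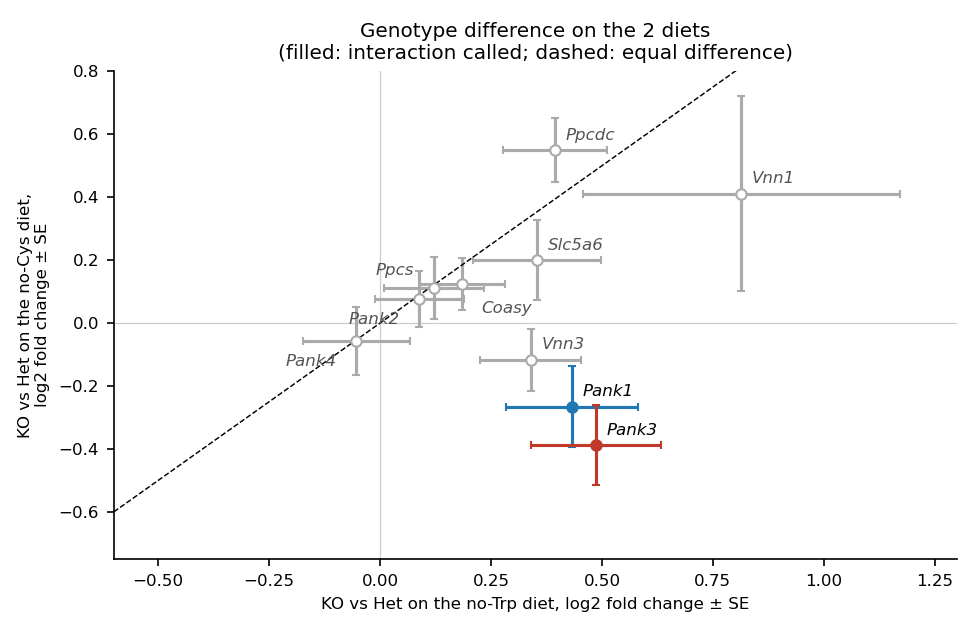
Log2 fold change of KO against Het livers on the no-Trp diet (horizontal axis) and on the no-Cys diet (vertical axis) for the 10 genes, with SE bars; the dashed line marks equal differences. Pank1 and Pank3, filled, lie below the line, at 0.43 and 0.49 on the no-Trp and -0.27 and -0.39 on the no-Cys diet.

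Pank2 and Pank4 passed in none of the 9 comparisons. Pank2 ranged from 15.1 to 23.7 CPM, with group means from 16.9 CPM in Het no-Trp to 21.8 CPM in KO no-Cys livers, and its no-Cys livers were higher than the no-Trp livers in both genotypes by log2 fold changes of 0.28 (SE 0.09, edgeR adjusted p = 0.066, KO) and 0.29 (SE 0.10, edgeR adjusted p = 0.066, Het) that did not pass. Of its 61-base words, 20.5% occur in another gene. Exons of Pank2 share 1125 bases (22.9% of its exon length) with Rnf24 on the opposite strand, and the library kit did not mark strand, so reads there cannot be assigned with certainty. Pank4 ranged from 14.5 to 22.2 CPM, with an unadjusted p of at least 0.060 in each of the 9 comparisons. The Pank2 and Pank4 interaction terms were -0.01 (SE 0.13) and -0.0031 (SE 0.16).

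Ppcs (ENSMUSG00000028636, chr4:119418530-119422420, minus strand), the gene of the step that consumes cysteine, had the smallest ratio of highest to lowest liver of the 10, 1.39, from 21.4 to 29.7 CPM. Its group means ran from 23.5 CPM in Het control to 26.2 CPM in KO no-Trp livers and all neighbouring groups overlapped. KO against Het livers on the no-Cys diet gave a log2 difference of 0.11 (SE 0.10), and the unadjusted p was at least 0.28 in all 9 comparisons.

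Ppcdc (ENSMUSG00000063849, chr9:57385095-57440124, minus strand), the decarboxylase of the next step, showed the firmest genotype difference of the set. It was at 20.1, 20.8, 17.96 and 21.3 CPM in the Het no-Cys livers and 26.9, 33.1, 29.9 and 27.6 CPM in the KO no-Cys livers. No KO liver overlapped a Het liver on that diet. Ppcdc was 1.46-fold higher in the KO livers (log2 fold change 0.55, SE 0.10, edgeR adjusted p = 0.00078), and it passed in all 8 fits without 1 library (log2 fold change 0.48 to 0.60, adjusted p at most 0.0050), and without av01, av08 and av15 together (0.58, adjusted p = 0.0010).

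The other KO groups were above the Het groups in their means as well. Ppcdc was at 28.7, 20.1 and 22.5 CPM in KO no-Trp and 26.8, 29.0, 26.5 and 24.4 CPM in KO no-Trp+BSO livers, against 17.6, 18.3 and 18.3 CPM in Het no-Trp and 18.6 and 18.7 CPM in Het control livers. By mean, the 3 KO groups (29.4, 26.7 and 23.7 CPM) thus stood above the 3 Het groups (20.04, 18.6 and 18.1 CPM), although KO no-Trp livers overlapped Het no-Cys livers. KO against Het on the no-Trp diet gave a log2 fold change of 0.39 (SE 0.12), which did not pass in edgeR (adjusted p = 0.074) and passed in DESeq2 (adjusted p = 0.044). It was 0.22 without av14, the KO liver with the highest Ppcdc of that group and with adipocyte transcripts, and 0.50 (adjusted p = 0.041) without the 3 libraries that stood apart. The interaction of genotype and diet was 0.16 (SE 0.16, edgeR adjusted p = 0.63), so a difference of the genotype contrast between the diets was not detected for Ppcdc. Of its 61-base words, 9.24% also occur in transcripts of another gene.

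Coasy (ENSMUSG00000001755, chr11:101082565-101086619, plus strand), the bifunctional last enzyme, had its highest mean on the no-Cys diet in both genotypes. It stood at 137, 156, 169 and 167 CPM in Het no-Cys, 122, 133 and 120 CPM in Het no-Trp, 174, 181, 171 and 159 CPM in KO no-Cys, and 130, 155 and 142 CPM in KO no-Trp livers. The no-Cys livers lay above the no-Trp livers without overlap in each genotype. The log2 fold change of no Cys against no Trp was 0.33 (SE 0.09, edgeR adjusted p = 0.031) in Het and 0.27 (SE 0.09, edgeR adjusted p = 0.062; DESeq2 adjusted p = 0.024) in KO livers. The call in Het livers passed in 2 of 7 fits without 1 library (log2 fold change 0.29 to 0.39, adjusted p from 0.011 to 0.10) and was lost without av02, av03, av04, av17 or av20. The call was also lost without a filter on low counts (adjusted p = 0.14) and in a fit of those groups alone (adjusted p = 0.12). The 4 KO no-Trp+BSO livers held 151, 142, 141 and 136 CPM, again below the KO no-Cys livers, at a log2 difference of 0.26 (SE 0.08, edgeR adjusted p = 0.083; DESeq2 adjusted p = 0.023). Without the 3 libraries that stood apart, Coasy passed in KO no Cys against no Trp (0.37, edgeR adjusted p = 0.012) and against no Trp+BSO (0.30, edgeR adjusted p = 0.018). The genotypes did not pass on either diet, with 0.12 (SE 0.08) without cysteine and 0.19 (SE 0.10) without tryptophan.

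**Figure D3:**
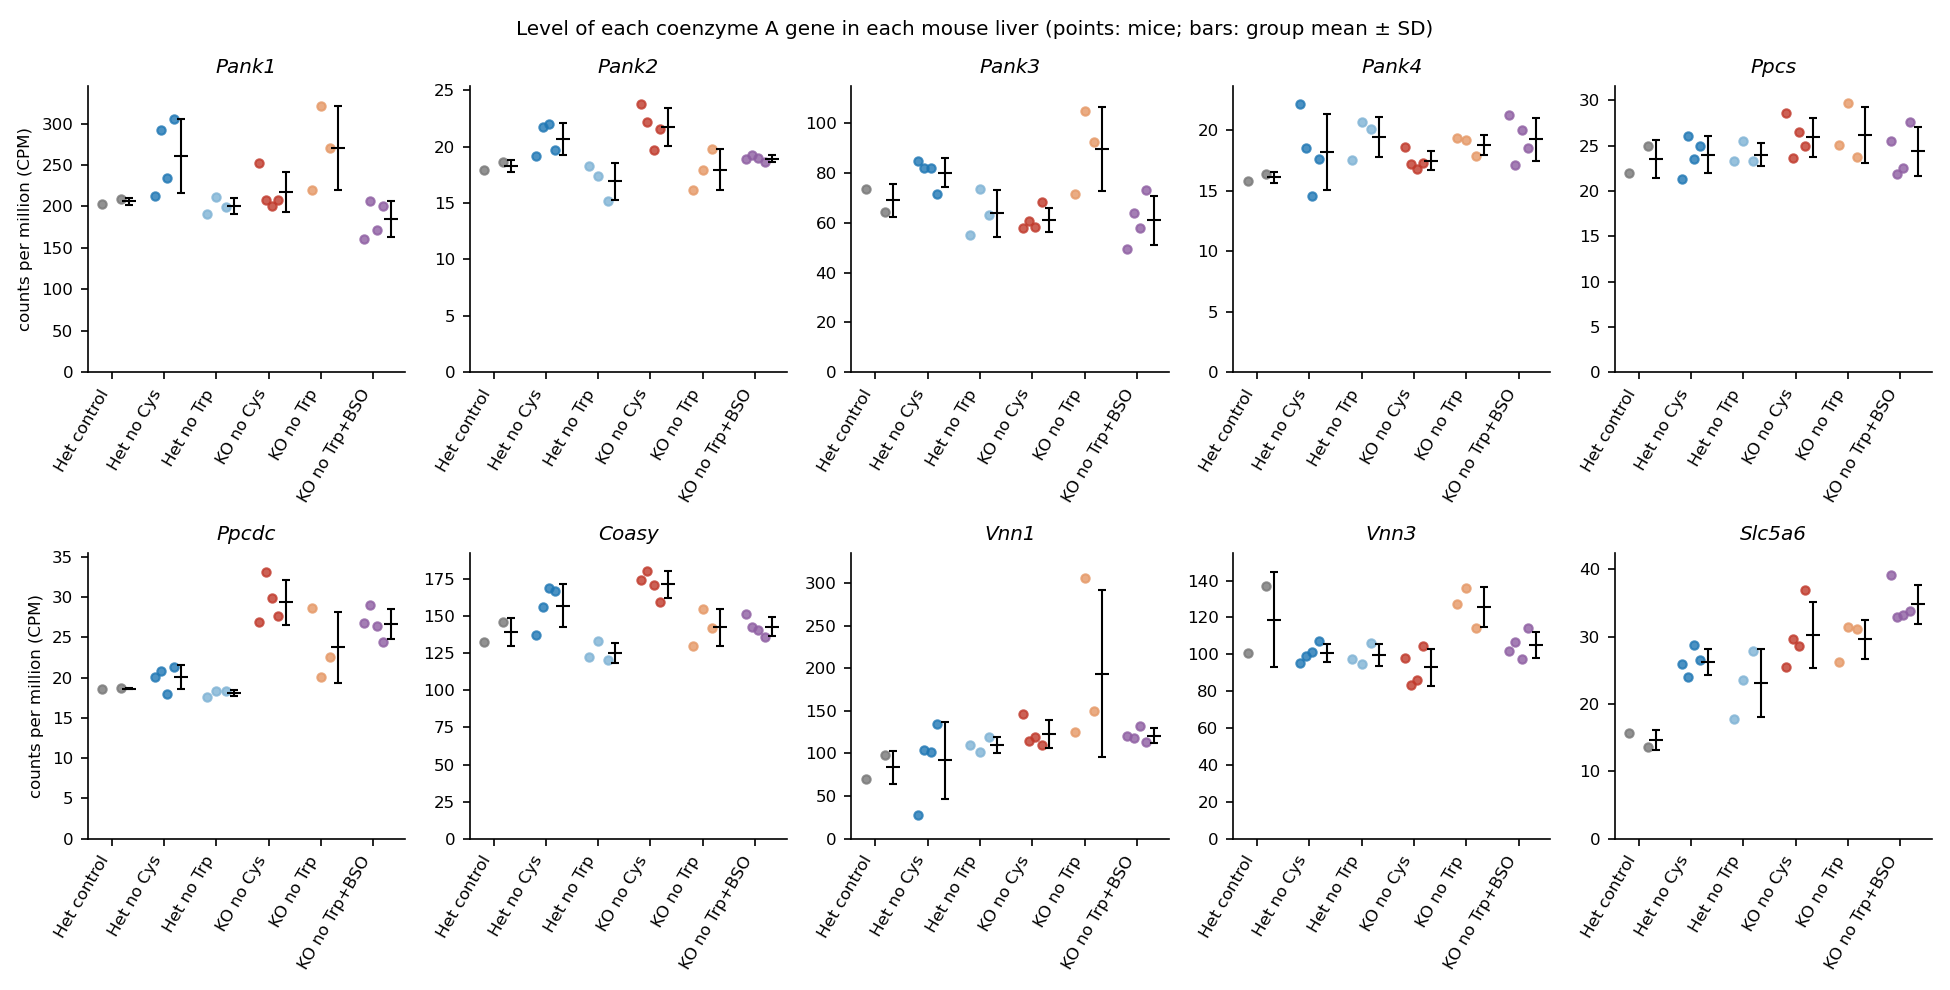
Level in CPM (vertical axes, starting at 0) of each gene in each mouse liver, by group; points are mice and the black marks are the mean with SD. Ppcdc in KO no-Cys livers (26.9 to 33.1 CPM) lies above all Het livers, and Slc5a6 is lowest in the 2 control livers (15.7 and 13.6 CPM).

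The pantetheinase genes Vnn3 (ENSMUSG00000020010, chr10:23851462-23869843) and Vnn1 (ENSMUSG00000037440, chr10:23894688-23905343) lie next to each other on the plus strand of chromosome 10, and no 61-base word of either occurs in another gene. Vnn1, the membrane-anchored pantetheinase and a known target of the fatty acid receptor PPARalpha, varied widely between mice of a group. It was at 28.3, 104, 102 and 135 CPM in Het no-Cys, 146, 115, 120 and 110 CPM in KO no-Cys, 110, 101 and 120 CPM in Het no-Trp, and 125, 306 and 150 CPM in KO no-Trp livers. The low value came from av01 and the high one from av15, both among the 3 libraries that stood apart. Vnn1 passed in none of the 9 comparisons. Its largest log2 fold change was 0.81 (SE 0.36, edgeR adjusted p = 0.23), KO against Het on the no-Trp diet, and this fell to 0.32 without the libraries that stood apart.

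Vnn3 was steadier. It stood at 95.3, 99.0, 101 and 107 CPM in Het no-Cys and 98.2, 83.5, 85.8 and 104 CPM in KO no-Cys livers, and at 127, 136 and 115 CPM in the 3 KO no-Trp livers. The KO no-Trp livers were all above the KO no-Cys livers, and Vnn3 was lower without cysteine by a log2 fold change of -0.44 (SE 0.11, edgeR adjusted p = 0.014). The call was lost without av14 (-0.43, adjusted p = 0.051) and in a fit of those groups alone (adjusted p = 0.057), while it was -0.43 (adjusted p = 0.023) without the libraries that stood apart. In Het livers the same diet contrast was 0.02 (SE 0.11, edgeR adjusted p = 0.93). The interaction, -0.46 (SE 0.15), did not pass (edgeR adjusted p = 0.091), so that the diet difference is not shown to differ between the genotypes.

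Slc5a6 (ENSMUSG00000006641, chr5:31036036-31048924, minus strand), the sodium-dependent carrier of pantothenate, biotin and lipoate, was lowest in the control livers. It was at 15.7 and 13.6 CPM in Het control and 25.9, 24.1, 28.7 and 26.5 CPM in Het no-Cys livers, with no overlap. The gene was 1.79-fold higher without cysteine (log2 fold change 0.84, SE 0.16, edgeR adjusted p = 0.012; DESeq2 adjusted p = 0.00023). Only 2 control livers were available, and without av22 the call was lost (0.74, adjusted p = 0.25), with 1 control liver then assumed to vary like the other groups. Het no-Trp livers, at 17.8, 23.6 and 27.8 CPM, were also above both control livers, with a log2 fold change of 0.66 (SE 0.17, edgeR adjusted p = 0.21; DESeq2 adjusted p = 0.053).

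All KO livers were above both control livers as well, a contrast of genotype and diet at once that was not tested, at 25.5, 29.7, 28.7 and 37.0 CPM without cysteine, 26.3, 31.4 and 31.2 CPM without tryptophan, and 39.2, 32.96, 33.1 and 33.9 CPM with BSO. The genotypes differed by 0.20 (SE 0.13) on the no-Cys and 0.35 (SE 0.14) on the no-Trp diet, and neither passed (edgeR adjusted p = 0.27 and 0.19). At its 5′ end Slc5a6 shares 396 exon bases (9.9% of its exon length) with Atraid on the opposite strand, and 17.1% of its 61-base words occur in another gene. Atraid itself was at -0.12 (SE 0.10, edgeR adjusted p = 0.59) in Het no Cys against control, and the part of shared reads in the Slc5a6 difference was not tested.

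By comparison, KO against Het livers on the no-Cys diet was the contrast with the most changes in the liver as a whole, and 2 of the 10 genes passed (Ppcdc higher, Pank3 lower), beside 23.8% of all genes tested (11.6% higher and 12.2% lower). That count is close to the background and is no result about the set. The median log2 fold change of the 10 was 0.09, and that of all genes -0.01. The same contrast on the no-Trp diet had 0 of 10 in edgeR, beside 2.64% of all genes. At an unadjusted p under 0.05 there were 6, beside 18.4% of all genes, and in DESeq2 there were 2 (Pank3 and Ppcdc), beside 4.92% of the genes to which it gave an adjusted p. Here 9 of the 10 were above 0, with a median of 0.35 against 0.0024 for all genes. The share of all genes above 0 was not counted. Of the genes at an unadjusted p under 0.05, all but Ppcdc (then 0.49) fell without av15, a KO no-Trp liver. The others were then at 0.28 (Pank1), 0.35 (Pank3), 0.31 (Vnn1), 0.27 (Vnn3) and 0.30 (Slc5a6). In the interaction 2 of 10 passed (Pank1 and Pank3, both negative), beside 4.36% of all genes (2.69% of all genes called lower). Of the 10 interaction terms 9 were below 0, but Pank4 (-0.0031, SE 0.16), Ppcs (-0.0092, SE 0.15) and Pank2 (-0.01, SE 0.13) were near 0. The median term was -0.11 for the 10 and -0.02 for all genes, and the share of all genes below 0 was not counted.

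Between diets, 2 of the 10 passed in KO livers on the no-Cys against the no-Trp diet (Pank3 and Vnn3, both lower; 10.4% of all genes, 5.35% lower), with 6 at an unadjusted p under 0.05 (26.5% of all genes), and 1 of the 10 in Het livers (Coasy, higher; 8.04% of all genes, 4.63% higher). Against the control diet, 1 of 10 passed in Het no-Cys livers (Slc5a6, higher; 2.18% of all genes, 0.989% higher). In Het no-Trp livers 0 of 10 passed in both edgeR (0.0474% of all genes) and DESeq2 (0.441%), with 1 at an unadjusted p under 0.05 (9.29% of all genes). Shares for DESeq2 are of the genes to which it gave an adjusted p. BSO on top of the no-Trp diet gave 0 of 10 in edgeR (0.793% of all genes), with 3 at an unadjusted p under 0.05 (13% of all genes) and 2 in DESeq2 (2.8%), Pank1 and Pank3. KO no Cys against KO no Trp+BSO gave 0 of 10 in edgeR (2.75% of all genes), with 2 at an unadjusted p under 0.05 (20% of all genes) and 1 in DESeq2 (6.44%), Coasy. Several contrasts share a group, and so their values are not independent of each other.

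**Figure D4:**
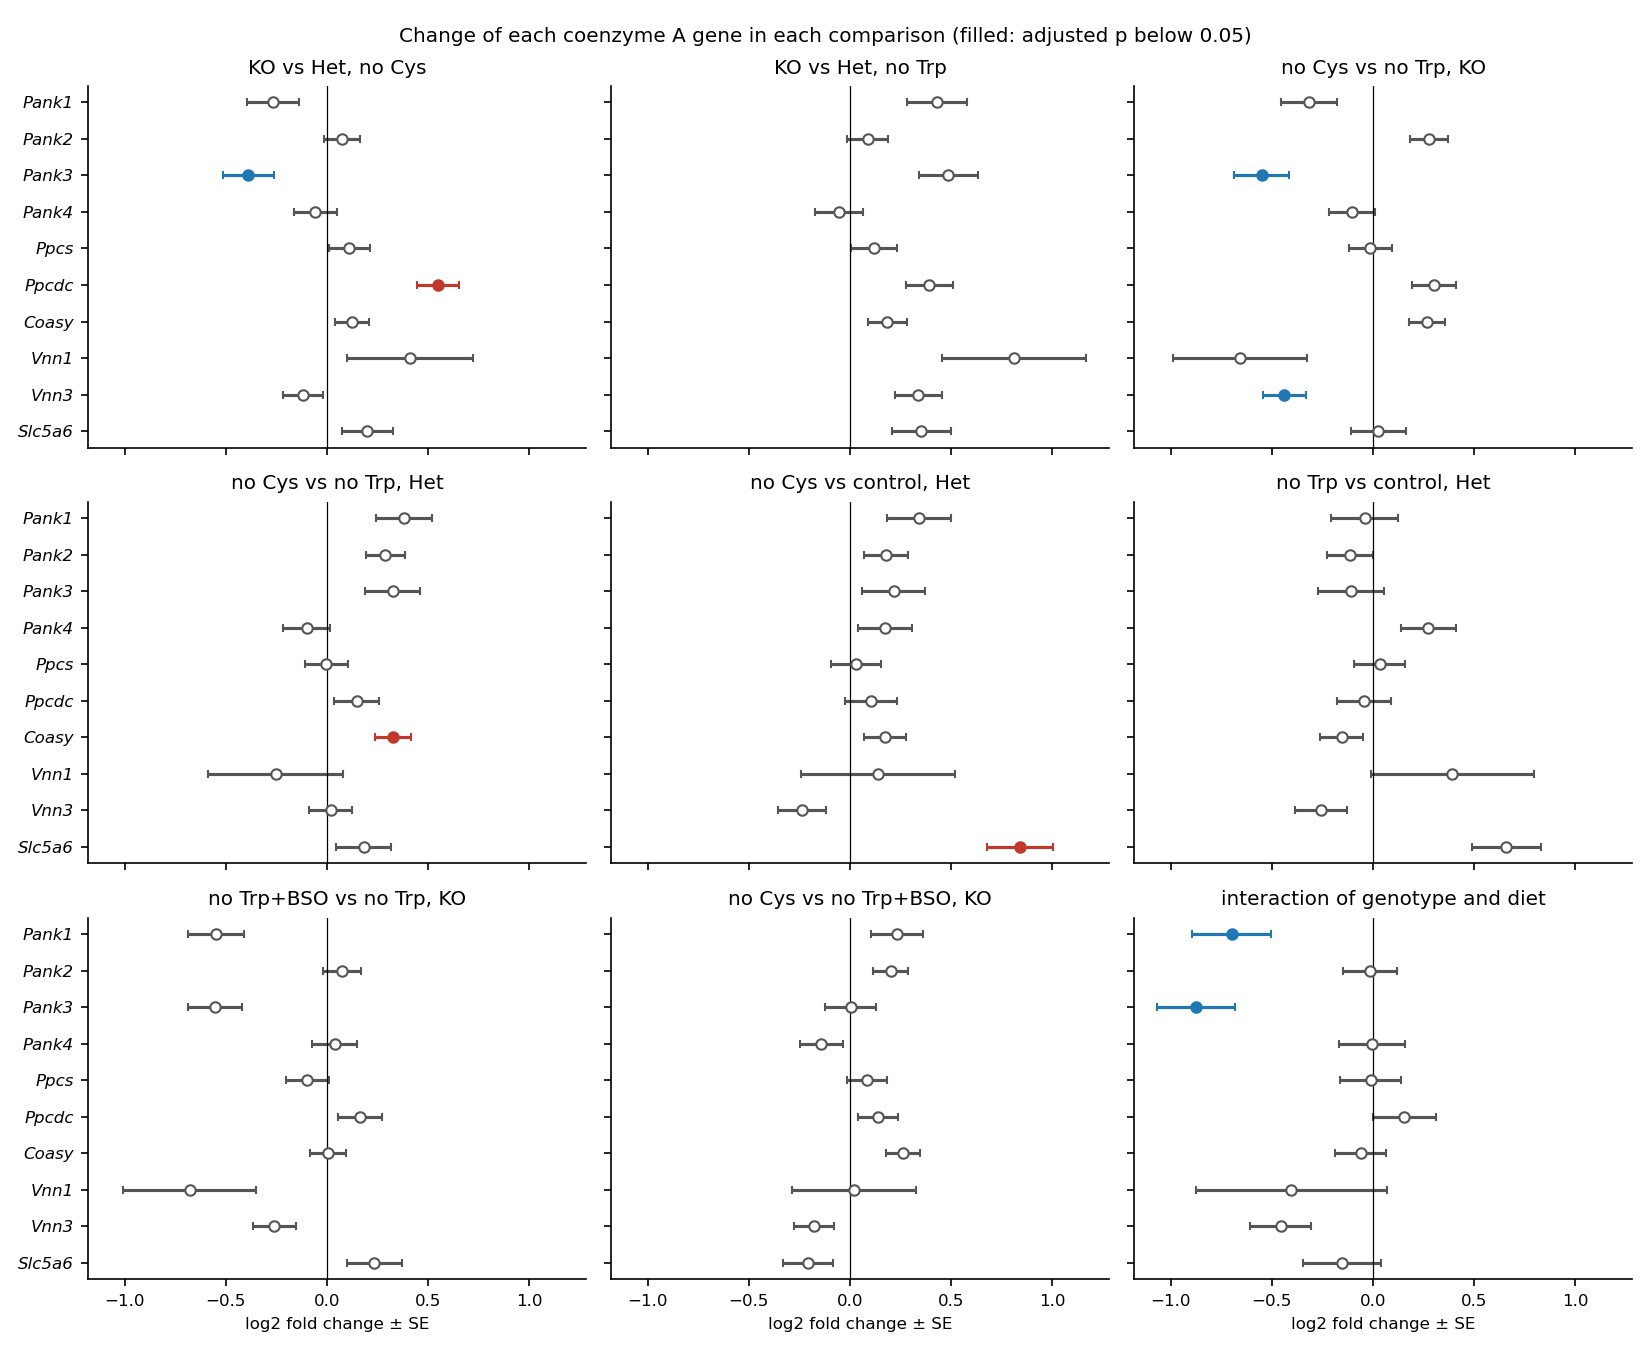
Log2 fold change with SE (horizontal axes) of each of the 10 genes in each of the 9 comparisons; filled symbols passed at an adjusted p below 0.05, red for higher and blue for lower. Pank3 passed in 3 panels. In the interaction panel Pank1 and Pank3 passed and lie left of 0, whereas Pank2, Pank4 and Ppcs lie near 0.

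The promoters of the genes that passed in the genotype contrast or the interaction are shown, since Pank1 and Pank3 shared a direction while Ppcdc did not. Of the 10 genes, 8 had a promoter window in RefSeq (GRCm38.p6), with 12 start sites among them; Coasy and Vnn1 are not among them. Of the 2 starts of Pank1, the one farther upstream is shown. The 250 bases before the start are given 5′ to 3′, and capitals mark CG dinucleotides. The RefSeq start of Ppcdc lies inside the gene span given above from GENCODE, and so does the whole stretch shown for it.
Pank1 (chr19:34879456-34879705, minus strand): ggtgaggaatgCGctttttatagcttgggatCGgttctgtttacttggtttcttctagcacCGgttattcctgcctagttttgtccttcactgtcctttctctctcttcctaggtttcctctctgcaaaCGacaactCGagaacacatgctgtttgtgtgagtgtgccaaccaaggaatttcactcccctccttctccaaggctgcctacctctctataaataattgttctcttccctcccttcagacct
Pank3 (chr11:35769245-35769494, plus strand): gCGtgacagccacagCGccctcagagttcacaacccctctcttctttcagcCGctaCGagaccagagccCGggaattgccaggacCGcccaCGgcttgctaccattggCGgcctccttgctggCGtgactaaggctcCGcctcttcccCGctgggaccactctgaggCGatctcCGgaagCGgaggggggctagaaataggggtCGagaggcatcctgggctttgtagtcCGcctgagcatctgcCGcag
Ppcdc (chr9:57439737-57439986, minus strand): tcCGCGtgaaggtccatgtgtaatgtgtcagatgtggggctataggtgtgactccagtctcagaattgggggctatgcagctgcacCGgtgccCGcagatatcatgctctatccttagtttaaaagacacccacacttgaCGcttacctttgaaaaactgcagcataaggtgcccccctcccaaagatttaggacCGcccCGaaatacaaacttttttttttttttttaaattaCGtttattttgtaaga
The Pank3 stretch held 17 CG dinucleotides and 63.6% G and C, against 5 and 46.4% for Pank1 and 8 and 44.4% for Ppcdc, and the medians of all 32851 windows were 6 and 52.4%. The other start of Pank1 had 7 CG dinucleotides and 52.8% G and C. Windows of 300 bases, including 50 after the start, were searched on both strands for 5 motifs: TGACNNNGC (antioxidant response element; in 12.4% of all windows), TGATGNAA (C/EBP-ATF response element; 3.97%), the PPAR response element, a direct repeat (0.381%), CACGTG (E-box; 7.15%) and TCACNCCAC (sterol response element; 1.24%). Only TGACNNNGC was found, in 1 window each of Pank2 and Vnn3. A match is a description of letters, and the absence of one says only that these letters are not in these windows.

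The genes whose level followed Ppcdc and Pank3 most closely over the 20 livers were named by Pearson's r of log2 CPM. For Ppcdc these were Cebpe, a C/EBP transcription factor (r = 0.91), Trib3, a pseudokinase (r = 0.90), and Cyb561d2, a cytochrome b561 family gene (r = 0.90). For Pank3 they were Syap1 (r = 0.86), Lipa, the lysosomal acid lipase (r = 0.85), and Fgd4, a guanine nucleotide exchange factor (r = 0.83). The 20 points share libraries and groups. After subtraction of the group means r was 0.62, 0.46 and 0.74 for the genes named with Ppcdc, and 0.78, 0.73 and 0.61 for those named with Pank3. These genes were picked by the r over the same livers, so both values describe them and are no test.

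Around the pathway, 4 lists of related genes were counted in KO against Het livers on the no-Cys diet, where 23.8% of all genes passed (11.6% higher, 12.2% lower). Only the acyl-CoA synthetases, with 7 of 19, had a share above that background, and no count here is a result about its list. Of 10 tested genes of CoA breakdown, transport and transfer, 0 were higher and 2 lower: Nudt7, the peroxisomal hydrolase of CoA (log2 fold change -1.44, SE 0.37, edgeR adjusted p = 0.0078), and Enpp1, a nucleotide pyrophosphatase (-0.34, SE 0.10, edgeR adjusted p = 0.024). Their median was -0.07, and the highest was Ado, the cysteamine dioxygenase, at 0.16 (SE 0.12, edgeR adjusted p = 0.36). The count of 2 became 1 without av01, av06, av07 or av08, without a filter on low counts, and in a fit of those groups alone. Nudt7 fell from a mean of 530 CPM in Het no-Cys to 195 CPM in KO no-Cys livers, and was at 359 CPM in KO no-Trp and 244 CPM in KO no-Trp+BSO livers.

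Of 11 tested acyl-CoA thioesterases, which release CoA from acyl-CoA, 1 was higher and 0 were lower, with a median of 0.05: the mitochondrial Acot2 (1.38, SE 0.38, edgeR adjusted p = 0.013), while Acot11 was lowest at -0.48 (SE 0.41, edgeR adjusted p = 0.42). Without av05 the call of Acot2 was lost. Of 19 tested acyl-CoA synthetases, which bind CoA to fatty acids, 2 were higher and 5 lower, with a median of -0.14. The lower ones were the long-chain synthetases Acsl3 (-1.32, SE 0.17), Acsl1 (-0.76, SE 0.19) and Acsl5 (-0.51, SE 0.11), the acetyl-CoA synthetase Acss2 (-0.89, SE 0.12) and the bile acid ligase Slc27a5 (-0.80, SE 0.16), and the higher ones Acsm2 (1.34, SE 0.47) and Slc27a4 (0.45, SE 0.10). Acss1 had the lowest value, -1.55, with an SE of 0.73 and an edgeR adjusted p of 0.13. Acsm2 (edgeR adjusted p = 0.045) and Acss1 had low levels, with means of 0.80 and 0.39 CPM in Het no-Cys livers. In KO no-Cys livers these means were 2.02 and 0.13 CPM. Slc27a4 (edgeR adjusted p = 0.0027) stood at means of 41.2 CPM in Het and 56.4 CPM in KO no-Cys livers.

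Of 13 genes for PPARalpha and its liver targets, 0 were higher and 2 lower: Fabp1 (-1.68, SE 0.33, edgeR adjusted p = 0.0011) and Acaa1b (-0.82, SE 0.24, edgeR adjusted p = 0.020). The median of the 13 was 0.18 with 10 of 13 above 0, so the median and the genes that passed differ in sign, and Cyp4a14 was highest (0.76, SE 0.34, edgeR adjusted p = 0.10). The count of 2 became 1 without av06 or av07, 4 without av08, 4 without the 3 libraries that stood apart and 5 without a filter on low counts. In KO livers on the no-Cys against the no-Trp diet, the same 4 lists had 2, 1, 4 and 1 genes lower and 0 higher, beside 10.4% of all genes (5.35% lower), and in a fit of those groups alone 0, 0, 1 and 0 passed. The PPARalpha count there was 0 in 6 of 7 fits without 1 library, and 4 without the libraries that stood apart. Among the lower genes were Nudt19, another peroxisomal CoA hydrolase (-0.43, SE 0.10, edgeR adjusted p = 0.012; -0.34, SE 0.10, adjusted p = 0.043 in Het livers), and Slc25a42, the mitochondrial carrier of CoA (-0.49, SE 0.15, edgeR adjusted p = 0.036).

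**Figure D5:**
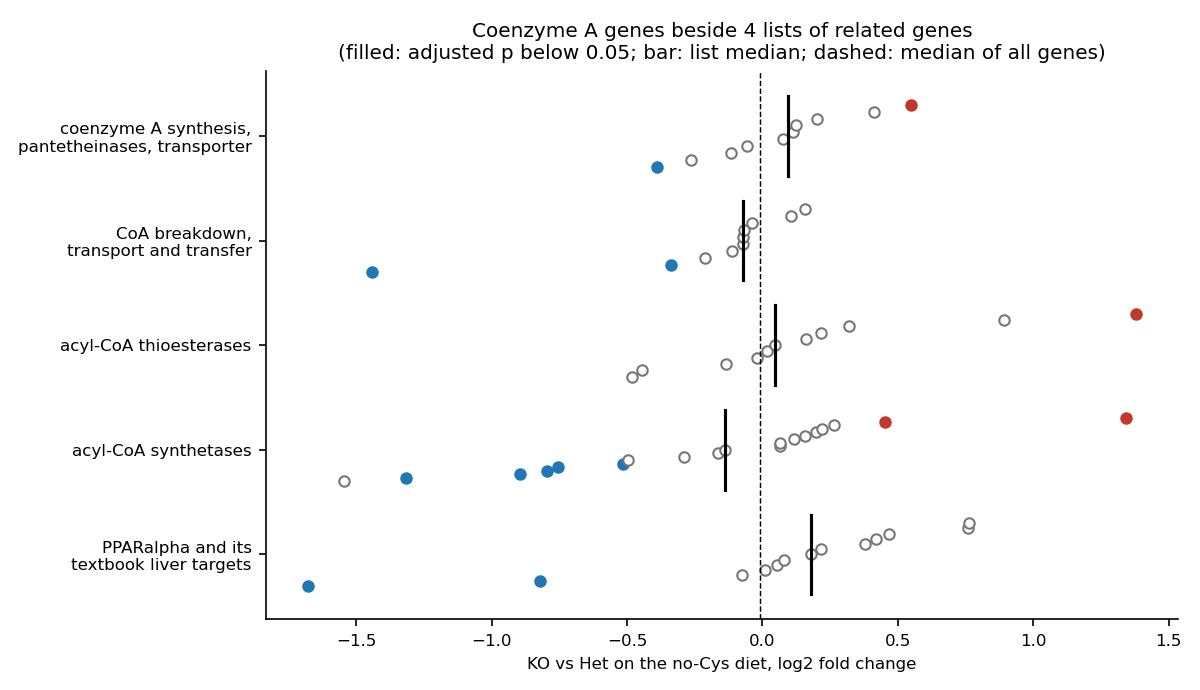
Log2 fold change of KO against Het livers on the no-Cys diet (horizontal axis) for the 10 CoA genes and 4 lists of related genes; each symbol is a gene, filled where it passed (red higher, blue lower), bars are list medians and the dashed line is the median of all genes, -0.01. Filled symbols are 2 of 10, 2 of 10, 1 of 11, 7 of 19 and 2 of 13 from top to bottom.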

How the data were processed

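Counts per gene are those the authors deposited: poly(A) RNA of each liver was sequenced from both ends with a kit that does not mark strand, aligned to GRCm38 (HISAT2 2.1.0) and counted on genes (HTSeq 0.11.0), as the submitters' processing notes name them, without normalization. Which annotation release they used is not stated in the sources read. Columns were matched to groups through the study's list of mice, so libraries are named by their codes there (av01 to av22). Of 21 columns of counts, 1 was not used.

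A filter on low counts (filterByExpr, at least 10 counts and a total of 15) preceded scaling with TMM factors and the quasi-likelihood test of edgeR 4.0.16 in R 4.3.3, with a mean for each of 6 groups over all 20 libraries. P-values are two-sided and adjusted by Benjamini-Hochberg over 14759 genes, and a gene passed, or was called, at an adjusted p below 0.05. They measure the spread between mice. Pairs of libraries of a group differed by more than counting noise (chi-square per gene 9.60 to 64.2 over 25 pairs). Lengths, positions and overlaps come from GENCODE vM21 on GRCm38, promoters and microRNAs from RefSeq. Log2 CPM for correlations used a prior count of 2. The interaction is KO against Het on the no-Cys diet minus the same on the no-Trp diet.

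The set of 10 genes was proposed, and the lists, motifs and tests were chosen, with earlier results of these data known. Named list genes are the highest and lowest of each list in KO against Het on the no-Cys diet; the list genes that passed are also named, chosen after their values were seen. For members called there, the 3 most alike genes are named. Of the list genes, 1 is not reported here, 1 was not matched to the table and 5 had too few counts. Other settings tried were DESeq2 1.42.0 (Wald test), RLE factors, no filter, a mean CPM of at least 1, only the groups compared, and leaving out each library. Leaving out the 3 libraries that stand apart (SD above 0.5) was chosen after seeing the data. On simulated counts of 13364 genes for KO against Het on the no-Cys diet, 150 of 200 changed genes were recovered (60% of 2-fold and 90% of 4-fold changes), with 11 false calls. That simulation fitted only these 2 groups, with 200 changed genes. The reported fit used 20 libraries and called 23.8% of genes in that contrast. The recovery therefore does not give the sensitivity of the reported test. Figures used Python 3.11.15 and matplotlib 3.10.9.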

Additional observations from a re-analysis of the deposited data

Results flagged for a closer look

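The genotype difference of Pank3 and of Pank1 differed between the no-Cys and the no-Trp diet by the interaction test of edgeR, at -0.87 and -0.70 on the log2 scale (adjusted p = 0.014 and 0.048). Pank3 passed in all 14 fits without 1 library, whereas Pank1 passed in 3 of 14 and was lost with RLE factors, in a fit of those groups alone and without the 3 libraries that stand apart (adjusted p = 0.051, 0.093 and 0.052). Pank1 in the KO no-Cys group had 1 liver far from the other 3, av05 at 253 CPM against 201 to 208 CPM. Slc5a6 in the KO no-Trp+BSO group likewise had av09 at 39.2 CPM against 32.96 to 33.9 CPM. Of 30 groups of 4 values examined this way, these 2 stood out, and chance alone marks about 1 in 20.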

How the results depend on the processing

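The number of the 10 genes that passed moved with the setting in most comparisons, and the cause was not tested. DESeq2 called 2 for BSO in KO no-Trp livers, 1 for KO no Cys against KO no Trp+BSO and 2 for KO against Het without tryptophan, where edgeR called 0. Without a filter on low counts, BSO gave 2 and Het no Cys against no Trp gave 0. A fit of only the groups compared gave 0 for no Cys against no Trp in both genotypes and 1 for the interaction, and RLE factors gave 1 for the interaction. Without the 3 libraries that stand apart, an alternative chosen after seeing the data, the counts were 1 for KO no Cys against KO no Trp+BSO, 1 for KO against Het without tryptophan, 2 for Het no Cys against no Trp, 1 for the interaction and 3, instead of 2, for KO no Cys against no Trp, which DESeq2 also gave.

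Leaving out 1 library at a time gave 1 to 2 for KO against Het without cysteine, 2 to 3 for no Cys against no Trp in KO, 0 to 2 for BSO, 0 to 1 for KO no Cys against KO no Trp+BSO, 0 to 1 for KO against Het without tryptophan, 0 to 1 for Het no Cys against control, 0 to 2 for Het no Cys against no Trp and 1 to 2 for the interaction. The count for Het no Trp against control was 0 in all settings run. For the 29 of 90 pairs of gene and comparison at an unadjusted p under 0.05, 391 repeats changed no sign, lost 32 calls and gained 25. Over all 90 pairs, the leave-one-out range crossed 0 in 22, none of them among the 29. The counts for the lists moved too. In KO against Het without cysteine, the PPARalpha list had 1 without av06 or av07, 4 without av08, 4 without the libraries that stand apart and 5 without a filter; the list of CoA breakdown had 1 without av01, av06, av07 or av08, without a filter, and when the 2 groups were fitted alone; the thioesterases had 0 without av05; and the synthetases had 6 to 8. In KO no Cys against no Trp, leaving out 1 library gave 1 to 2, 0 to 1, 3 to 5 and 0 to 1 for CoA breakdown, thioesterases, synthetases and PPARalpha, with PPARalpha at 0 in 6 of 7 fits. In the interaction, the synthetases had 5 instead of 3 without a filter and in DESeq2. No paired analysis was possible because the columns of the count table carry no replicate numbers, so the fit with a replicate block was not run. In the simulated data, with 4 mice a group, 60% of 2-fold changes were recovered, and groups as small as the 2 control livers were not simulated.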

Other observations

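Of the 19 acyl-CoA synthetase genes tested, edgeR called 1 in Het no Cys against control (2.18% of all genes), 3 in Het no Cys against no Trp (8.04%), 3 in the interaction of genotype and diet (4.36%; 5 without a filter on low counts and 5 in DESeq2), 1 in no Trp+BSO against no Trp in KO livers (0.793%) and 1 in KO no Cys against KO no Trp+BSO (2.75%; Slc27a5, at a log2 fold change of -0.63, SE 0.16, adjusted p = 0.035). In Het no Cys against no Trp, 2 of 10 genes of CoA breakdown, transport and transfer passed, Slc25a17 higher (0.37, SE 0.11, edgeR adjusted p = 0.041) and Nudt19 lower (-0.34, SE 0.10, edgeR adjusted p = 0.043). Acss2, the cytosolic acetyl-CoA synthetase, was higher in Het livers on the no-Cys diet than on the control diet (log2 fold change 0.63, SE 0.15, edgeR adjusted p = 0.025) and than on the no-Trp diet (1.14, SE 0.13, edgeR adjusted p = 9.4e-05). Its mean was 126 CPM in Het no-Cys against 67.8 CPM in KO no-Cys livers, and the interaction of genotype and diet was -1.28 (SE 0.18, edgeR adjusted p = 0.0011). The long-chain synthetases Acsl3 (-1.49, SE 0.26) and Acsl5 (-0.99, SE 0.18) passed in the same test (edgeR adjusted p = 0.0031 and 0.0037). Acsl3 was also lower with BSO than without it in KO no-Trp livers (-0.87, SE 0.18, edgeR adjusted p = 0.023), where 0 of the 10, 11 and 13 genes tested in the lists of CoA breakdown, thioesterases and PPARalpha passed. In the PPARalpha list, 1 of 13 genes passed in KO no Cys against KO no Trp+BSO: Plin2, a lipid droplet coat gene, was higher in KO no-Cys than in KO no-Trp+BSO livers (1.13, SE 0.29, edgeR adjusted p = 0.039). These genes were named after their values were seen.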
